A study of Homo sapiens with 4 samples.

Results

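HT29 was compared with DLD1 at baseline, both lines growing with glucose, over every gene that could be named on the array. The comparison takes the 2 arrays of 4 in the series whose medium held glucose and glutamine, 1 for each line. Of 17575 named genes on the array, 16177 were above background on at least 1 of the 2 arrays and were measured here. HT29 and DLD1 are established human colorectal adenocarcinoma lines. For these 2 arrays, cells that had grown in complete medium spent 24 h in medium with 10% dialysed serum, 10 mM glucose and 2 mM glutamine. The other 2 arrays held the same lines after 24 h in that medium without glucose, and they serve here as the only other measurement of the lines. RNA was labelled with Cy5 for single-colour oligonucleotide arrays, and no label states whether any culture was repeated.

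The intestinal epithelium is renewed from stem cells at the crypt base, which WNT signalling maintains, and its daughter cells become absorptive enterocytes or secretory cells such as goblet cells. Colorectal cancers keep parts of these programmes and combine them with growth signalling through the MAP kinase chain and with loss of TGF-beta restraint. The lines are models of different routes: DLD1 is deficient in mismatch repair through mutated MSH6, whereas HT29 carries mutant BRAF, is microsatellite stable and has a truncating mutation in SMAD4. Both carry truncated APC and mutant p53. Each line is 1 tumour's descendant, so a difference between them is a difference between 2 lines and not between classes of tumour.

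A level is given here as log2 of the normalized intensity, and a difference as HT29 minus DLD1 on that scale, where 1 is 2-fold. The dimmest named probes above background lay near 5.73 on both arrays, and an offset added during background correction makes the differences of dim genes smaller than they were. With 1 array a side there is no replicate spread with glucose, so differences carry no p-value and genes were counted at a 2-fold minimum. The difference on the 2 arrays without glucose, which share no array with the first pair, stands beside most values.

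Both lines had the levels of an epithelial cell. All 9 epithelial markers on the array were above background in both, as were 15073 of 17575 named genes. EPCAM was at 13.32 in DLD1 and 13.22 in HT29, and the keratin KRT18 at 14.49 and 14.73. Most markers of other cells were dim. The leukocyte gene PTPRC and the collagen genes COL1A1, COL1A2 and COL3A1 were below background on both arrays. Brighter members had deposited intensities, DLD1 first, of 82.2 and 105.3 (CD79A), 45.95 and 46.35 (DCN) and 25.4 and 38.4 (CD14). KDR had 28.2 and 24.3, where the median of each array was 25. CD79A, DCN and KDR supplied most of the leukocyte, mesenchymal and endothelial sums that follow. The summed deposited intensities of the 5 leukocyte markers on the array were 110.1 in DLD1 and 145.6 in HT29, those of the 8 mesenchymal markers 71.6 and 75.0, and those of the 3 endothelial markers 34.3 and 31.2. Markers of mature intestinal cells were less uniform: the goblet mucin MUC2 lay at 5.70 and 5.77, at the floor of the array in both lines, and CDX1 at 6.01 and 6.10.

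Most genes had similar levels in the lines. Of the 16177 genes, 13132 (81.18%) differed by under 0.5 log2, and levels across genes correlated between the lines with r = 0.938, a description over genes that share arrays and normalization. The same r was 0.977 between DLD1 with and without glucose and 0.943 between HT29 with and without glucose. At 2-fold, 498 genes (3.08%) were higher and 432 (2.67%) lower in HT29, together 930 (5.75%). At 4-fold there were 109 (0.674%) and 77 (0.476%). Higher genes made up 53.55% of the 2-fold genes, but 67.06% (747 higher, 367 lower) when arrays were scaled to equal medians in place of quantile normalization.

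Of the 498 higher genes, 288 were also at least 2-fold higher without glucose (1.78% of all genes measured) and 480 kept their sign. Of the 432 lower genes, 300 (1.85%) and 407 did so. Over all genes measured, 70.64% had the same direction in both media. Limma, fitted to all 4 arrays with the medium as a block, called 0 genes after Benjamini-Hochberg adjustment at 0.05. Its smallest adjusted p was 0.138, and 3431 genes had p below 0.05 before adjustment. That fit has 1 residual degree of freedom, and its spread is the difference between the media in the line effect. Without the block it called 23 higher and 23 lower genes, and on the deposited values, with the block, 400 and 408. The named genes below are therefore differences between arrays, given with the second pair of arrays as the only check.

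**Figure D1:**
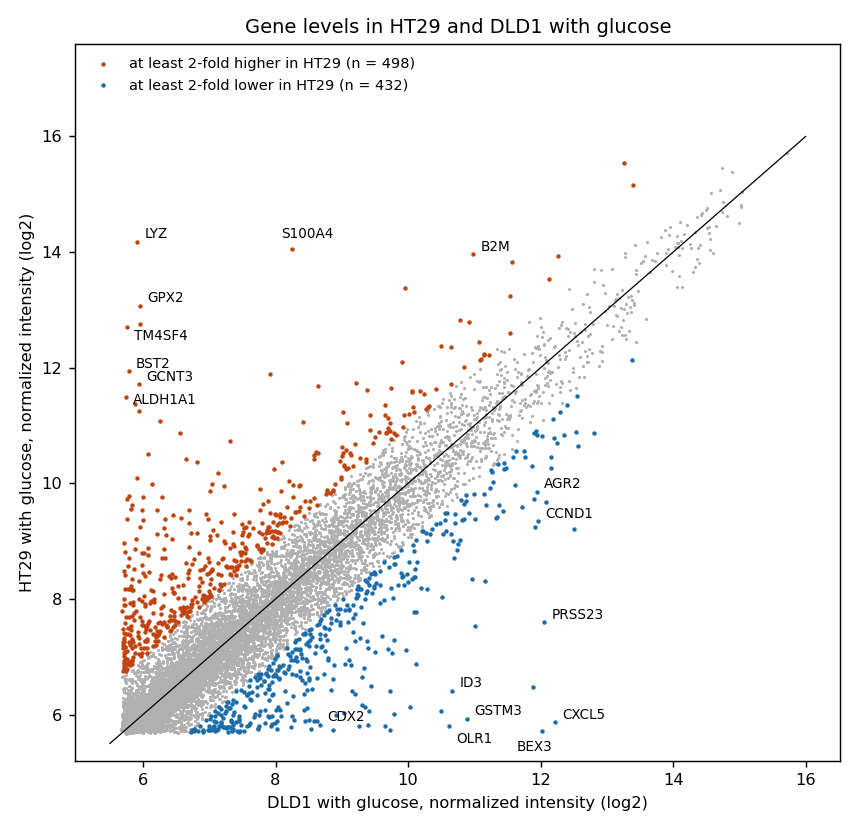
Level of each of the 16177 measured genes in DLD1 (x axis) and HT29 (y axis) with glucose, as log2 normalized intensity, with the line of equal levels. The 498 genes at least 2-fold higher in HT29 and the 432 at least 2-fold lower are coloured, and many of the most distant genes lie at the floor of 1 line, such as LYZ in DLD1 and CXCL5 in HT29.

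The largest difference was that of LYZ, which encodes the antibacterial enzyme lysozyme and had a level of 5.91 in DLD1 and 14.18 in HT29, or 8.27 with glucose and 6.76 without. GPX2, the gastrointestinal glutathione peroxidase, stood at 5.95 and 13.08 (7.12 with glucose, 5.5 without). TM4SF4, a surface protein with 4 membrane passes, stood at 5.76 and 12.71 (6.95 and 5.0). All 3 were near the floor in DLD1 and among the bright genes of HT29. The galectin-4 gene LGALS4, an intestinal lectin, followed with 5.95 and 11.26 (5.31 and 5.84), and GCNT3, whose enzyme branches mucin-type sugar chains, with 5.95 and 11.72 (5.77 and 5.80). Both had a difference of about the same size in the other medium. LYZ is also a leukocyte gene. Of the 19 measured genes of the leukocyte list, it was the only one at least 2-fold higher and CORO1A (-1.88 and -1.61) the only one lower, 10.5% against 5.75% of all genes, and PTPRC was below background in both lines. In RNA of a whole culture, fewer cells with a transcript and less transcript per cell cannot be told apart.

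The retinaldehyde dehydrogenase gene ALDH1A1 was at 5.74 in DLD1 and 11.50 in HT29 (5.76 with glucose, 4.04 without). S100A4, a calcium-binding protein gene that is also a mesenchymal marker, was at 8.24 and 14.05 (5.81 and 3.13), and was the only one of the 22 measured genes of the mesenchymal list past 2-fold, 4.55% against 5.75% of all genes. The cysteine-rich intestinal protein gene CRIP1 was at 5.88 and 11.37 (5.48 and 3.32). In these 3 genes the lines were closer to each other without glucose. NNMT, which encodes an enzyme that methylates nicotinamide, had differences of 4.45 and 4.38, the growth factor binding protein gene IGFBP6 of 4.32 and 4.85, the heparan sulfate sulfatase gene SULF2 of 4.18 and 2.52, and the annexin gene ANXA10 of 3.98 and 5.22. HSPA1A, the inducible heat shock protein 70 gene, was 4.81 higher with glucose and 8.91 higher without. Its near-identical copy HSPA1B, 1.22 and 5.45 higher by its own probe, could be read by the same probes, so the identity of both is uncertain.

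Among the genes most in excess in DLD1, CXCL5, which encodes a chemokine that attracts neutrophils, was at 12.21 in DLD1 and 5.87 in HT29, a difference of -6.35 with glucose and -5.79 without. BEX3, an adaptor protein gene on the X chromosome, was at 12.02 in DLD1 and below background in HT29, which makes it at least 78.2-fold lower there (-6.24 without glucose). TNNC1, the troponin C gene of slow and cardiac muscle, was at 11.89 and 6.48 (-5.41 and -5.99). The glutathione transferase gene GSTM3 was at 10.89 and 5.92 (-4.97 and -5.16). In these 4 genes, picked by their difference with glucose, the other medium gave a similar difference. The lipoprotein receptor gene OLR1 differed by -4.82 and -4.83, but by 0.34 when the local background around each spot was subtracted, so its call rests on the choice of background.

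Further genes among the 15 lowest were the secreted protease gene PRSS23 (-4.46 with glucose, -3.02 without), the surface glycoprotein gene CD99 (-4.43 and -3.96), EPDR1 (-3.99 and -4.19), GDPD3 (-3.90 and -4.40), TMEM52B (-3.84 and -3.74), the neuropeptide gene GAL (-3.58 and -3.15), the calponin gene CNN3 (-3.48 and -3.86) and the cystatin gene CST7 (-3.46 and -3.54). The extracellular chaperone gene clusterin, CLU, was the least stable of them, at -3.78 with glucose and -1.49 without. Its level in HT29 was 6.01 with glucose and 8.78 without.

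**Figure D2:**
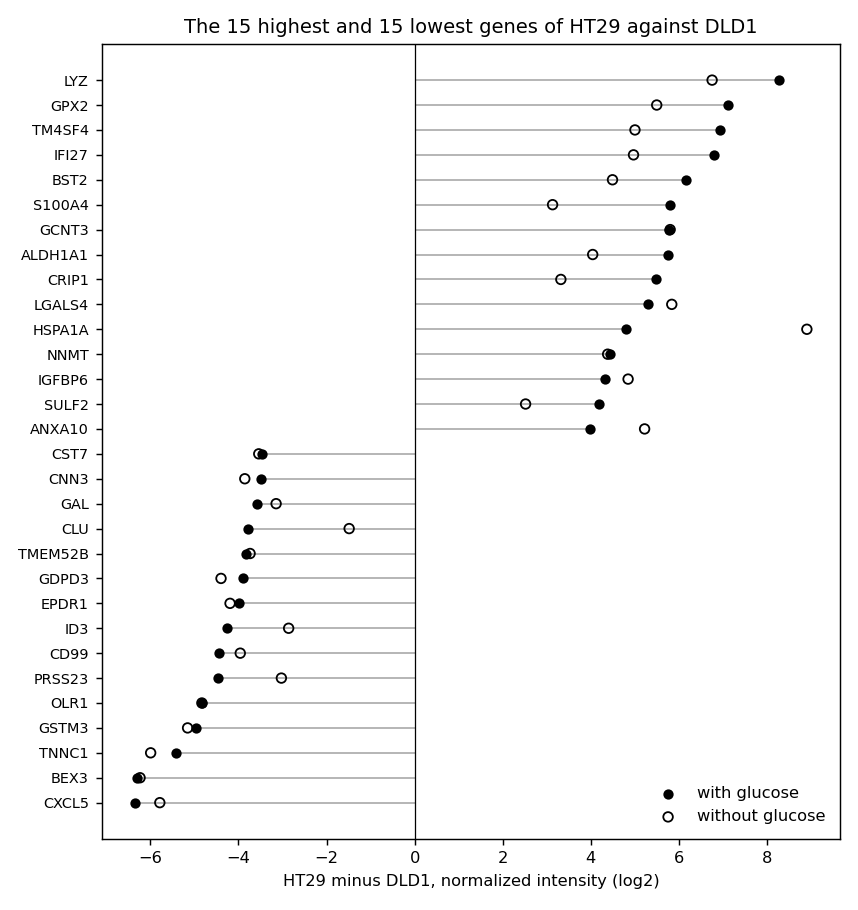
Difference HT29 minus DLD1 in log2 normalized intensity (x axis) for the 15 highest and 15 lowest genes with glucose, shown with glucose (filled) and without (open). All open points lie on the same side of 0 as the filled ones. Those of HSPA1A (4.81 and 8.91), S100A4 (5.81 and 3.13) and CLU (-3.78 and -1.49) lie farthest from them.

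Transcription factors that set intestinal identity differed in both directions. Of 26 measured, 5 were at least 2-fold higher in HT29 and 3 lower, with a median difference of 0.00, against 3.08% and 2.67% of all genes. CDX2, the homeobox factor that specifies intestine, was at 8.67 in DLD1 and 5.83 in HT29 (-2.85 with glucose, -2.08 without), so that its single probe was near the floor in HT29. GATA6, a zinc finger factor of the gut epithelium, was at 8.92 and 7.83 (-1.10 and -1.43). In the other direction PPARG, the lipid-sensing nuclear receptor of colonocytes, was at 7.04 and 9.99 (2.95 and 1.54). KLF5, a factor of proliferating crypt cells, was at 10.24 and 11.54 (1.30 and 0.31), whereas KLF4, a factor of differentiated and goblet cells, was at 7.24 and 6.03 (-1.21 with glucose, 0.52 without). The epithelial factor genes HNF4G, ELF3 and EHF were higher by 1.17, 1.15 and 1.02 with glucose and by 1.38, 0.41 and 0.86 without, so ELF3 and EHF were under 2-fold apart there. With the local background subtracted, GATA6, KLF4, HNF4G, ELF3 and EHF were under 2-fold apart, which left 2 higher and 1 lower.

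Genes of the absorptive cells, which CDX2 helps to switch on, were higher in some cases and lower in others. Of 39 measured enterocyte and colonocyte genes, 6 were higher and 2 lower in HT29, 20.5% against 5.75% of all genes, with a median difference of 0.02. Beside LGALS4, the late differentiation keratin KRT20 was at 6.72 in DLD1 and 9.13 in HT29 (2.42 with glucose, 2.89 without), and the membrane carbonic anhydrase gene CA12 at 6.33 and 8.71 (2.38 and 1.60). Both KRT20 and CA12 were at least 2-fold higher in both media, as were 1.78% of all genes. The tetraspanin gene TSPAN1 was 1.96 higher with glucose and 0.44 without. The brush border genes VIL1, for villin, and USH1C, for harmonin, were 1.14 and 1.36 higher with glucose, 0.37 and 0.50 without, and both were under 2-fold with the local background subtracted. CDH17, the liver-intestine cadherin gene, was at 7.84 and 5.85 (-1.99 and -2.77), although by -0.33 with the local background subtracted. The cytosolic carbonic anhydrase gene CA2 was at 7.99 and 5.85 (-2.14 and -0.87). Other absorptive genes lay near the floor in both lines, among them FABP2, for a fatty acid binding protein, at 6.4 and 6.35, and the chloride exchanger gene SLC26A3 at 5.74 and 5.71.

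Secretory genes were also split. Of 32 measured goblet and mucin genes, 3 were higher and 3 lower in HT29, against 3.08% and 2.67% of all genes, with a median of 0.03. SPINK1, a trypsin inhibitor gene, was at 5.81 in DLD1 and 9.55 in HT29 (3.74 with glucose, 5.93 without), and the trefoil factor gene TFF2 at 5.98 and 7.96 (1.98 and 0.46). Both SPINK1 and TFF2 were near the floor in DLD1 with glucose. AGR2, a protein disulfide isomerase gene needed for mucin folding, was at 11.94 and 9.85, or -2.09, with glucose, but at 13.14 and 13.65, or 0.51, without. The goblet trefoil factor gene TFF3 was -1.12 and -2.39, the secretory vesicle gene SYTL2 -1.28 and -0.98, and the goblet cell factor gene SPDEF 1.10 and 0.31. All 3 were under 2-fold with the local background subtracted. No measured mucin gene of this list differed by 2-fold, and MUC2, MUC3A, MUC4 and MUC6 lay near the floor in both lines. MUC13 was at 6.82 and 7.12, MUC5B at 6.6 and 6.71 and MUC20 at 6.99 and 7.08.

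Among enzymes that build sugar chains, 5 of 49 measured glycosyltransferase genes were at least 2-fold higher in HT29 and 3 lower, 16.3% against 5.75% of all genes. Beside GCNT3, GALNT14, which starts such chains, was at least 6.38-fold higher in HT29 with glucose and 4.98-fold without, being below background in DLD1. The sialyltransferase genes ST3GAL1 and ST6GALNAC4, which cap them, were 2.31 and 2.14 higher with glucose and 1.88 and 3.19 without. ST3GAL4 was 2.14 higher with glucose and 0.27 without. GALNT1 and GALNT6, also initiating enzymes, were -2.16 and -1.69 with glucose and -1.78 and -1.63 without, and the galactosyltransferase gene B4GALT4, under 2-fold with the local background subtracted, was -1.0 and -0.56. Of the chain-initiating family, GALNT14 was therefore higher in HT29 and GALNT1 and GALNT6 in DLD1, while GALNT3 was at 8.65 and 8.55.

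Of 40 measured targets of WNT signalling and stem cell genes, 6 were at least 2-fold lower in HT29, against 2.67% of all genes, and 3 higher, against 3.08%. The list median was -0.001, with differences in both directions: 17 of the 40 were within 0.25 log2 between the lines, against 10390 of 16177 genes measured, and the median absolute difference was 0.304 against 0.131. CCND1, for the G1 cyclin D1, was at 11.96 in DLD1 and 9.34 in HT29 (-2.61 with glucose, -2.35 without). AXIN2, a feedback inhibitor that WNT signalling itself induces, was at 8.15 and 6.4 (-1.75 and -1.52), and the nuclear partner gene LEF1 at 7.75 and 6.0 (-1.75 and -1.18). These 3 were at least 2-fold lower in HT29 in both media, as were 1.85% of all genes. TNFRSF19 (-1.63 and -0.61), SP5 (-1.21 and -1.27) and the ephrin receptor gene EPHB2 (-1.17 and -0.66) were the other lower members, and EFNB1 (1.15 and 0.73), PTPRO (1.12 and 0.02) and EPHB4 (1.02 and 0.17) the higher ones. With the local background subtracted, 2 of the lower genes, CCND1 and AXIN2, and 0 of the higher ones were past 2-fold. The stem cell and Paneth cell factor gene SOX9 was at 9.06 and 8.41.

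Of 31 measured genes that report the output of the MAP kinase chain, 3 were lower and 2 higher in HT29, 16.1% against 5.75% of all genes, with a median of 0.00. Without glucose 9 were higher and 2 lower, against 4.67% of all genes in each direction, and with the local background subtracted 0 and 2 with glucose. DUSP6, the phosphatase that ERK activity induces and that switches ERK off, was at 11.35 in DLD1 and 9.41 in HT29 (-1.94 with glucose, -2.16 without). The Sprouty inhibitor genes were close, SPRY2 at 6.87 and 7.10 and SPRY4 at 6.54 and 6.68. The immediate early gene FOS was at 6.14 and 7.39 (1.25 and 3.68), and ETV4 at 6.93 and 7.95 (1.02 and 0.17), both under 2-fold with the local background subtracted. EGR1 was -1.03 with glucose and 1.80 without. Of ligands and receptors, EREG, for the EGF receptor ligand epiregulin, was at 9.50 and 7.09 (-2.42 and -1.54), and MET, for the hepatocyte growth factor receptor, at 7.56 and 8.86 (1.30 and 2.25). EREG was -0.95, MET 0.66 and EGR1 0.11 with the local background subtracted.

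TGF-beta and BMP genes included wide gaps. Of 40 measured, 6 were lower and 2 higher, against 2.67% and 3.08% of all genes, with a median of -0.07. The counts without glucose were 6 lower and 5 higher, against 4.67% of all genes in each direction. The inhibitor of differentiation genes ID3 and ID2, direct targets of BMP signalling, were at 10.67 and 11.16 in DLD1 and at 6.41 and 8.30 in HT29, differences of -4.25 and -2.86 with glucose and -2.86 and -1.81 without. Their relative ID1 was at 11.38 and 11.34, a difference of -0.04 with glucose and -1.03 without. SMAD4, the shared partner of the pathway's signal carriers, was at 7.96 and 6.35 (-1.60 and -1.81), though -0.85 with the local background subtracted. The ligand gene BMP4 was -1.02 with glucose and -3.38 without, the decoy receptor gene BAMBI -1.39 and -0.80, and GDF15 -1.22 and -0.39. BMP4 was under 2-fold after median scaling, and BAMBI with the local background subtracted. The 3 ID genes thus had different gaps. The inhibitory SMAD6 was at 5.89 and 8.87 (2.99 and 2.45) and SMAD3, a TGF-beta signal carrier, at 6.22 and 7.38 (1.16 and 1.12, under 2-fold with the local background subtracted).

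Cell cycle entry genes differed in a mixed way, with 3 of 22 measured higher and 1 lower in HT29, 18.2% against 5.75% of all genes. CDKN2A, which encodes the inhibitor p16 and the p53 regulator ARF, was at 6.29 in DLD1 and 9.76 in HT29 (3.47 with glucose, 2.02 without), and its neighbour CDKN2B at 6.05 and 7.53 (1.48 and 2.61, or 0.04 with the local background subtracted). The kinase they inhibit, CDK6, was at 6.99 and 8.65 (1.66 and 2.27), while CDK4 was at 10.30 and 10.10. Both the inhibitors and this kinase were therefore higher in HT29. None of 34 measured G2 and mitosis genes was 2-fold apart with glucose, against 5.75% of all genes. Without glucose 4 were lower and 0 higher, against 4.67% of all genes in each direction. Of 43 measured DNA replication genes, 4 were lower and 2 higher in HT29 with glucose, 13.95% against 5.75% of all genes. After median scaling 1 was lower and 2 higher. On the arrays without glucose 17 of these genes were lower and 0 higher, against 4.67% of all genes in each direction. Among 27 measured p53 targets, 4 were lower and 1 higher in HT29 with glucose, 18.5% against 5.75% of all genes. This balance turned without glucose, with 6 higher and 2 lower, against 4.67% of all genes in each direction. The list median was -0.05 with glucose and 0.21 without. The p53 target PERP, a desmosome protein gene, was at 12.50 and 9.21 (-3.30 and -3.74). SFN, for the 14-3-3 sigma protein, was at 11.33 and 9.39 with glucose and at 10.62 and 11.26 without, so that its difference was -1.94 and 0.65.

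Of 14 measured mismatch repair genes, 1 was past 2-fold, 7.14% against 5.75% of all genes. MSH6, which is mutated in DLD1, was at 7.23 in DLD1 and 8.97 in HT29 (1.74 with glucose, 0.71 without). The others with the widest gaps were EXO1, for a repair exonuclease, at 8.49 and 7.65, and the glycosylase gene OGG1 at 7.40 and 6.62. PMS2 was at 7.12 and 6.92 and MSH3 at 7.34 and 7.17. The array reads transcript levels and not mutations.

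Interferon-stimulated genes, many of which restrict viruses, included some of the widest gaps between the lines. Of 40 measured, 11 were at least 2-fold higher, against 3.08% of all genes, 1 was lower, and 32 had a positive difference, with a list median of 0.39 against 0.00 over all genes. IFI27, for an interferon-induced mitochondrial protein, was at 5.95 in DLD1 and 12.75 in HT29 (6.81 with glucose, 4.97 without), and BST2, for tetherin, which holds budding virus at the cell surface, at 5.78 and 11.94 (6.16 and 4.5). Both were near the floor in DLD1 in both media. The other 9, OASL, IFI44, IFIT1, IFITM1, IFI6, IFIT3, MX1, IFI35 and IFI44L, were between 1.13 and 2.31 higher with glucose and between 0.015 (IFIT3) and 0.998 (OASL) higher without. HERC5, an enzyme that attaches the ubiquitin-like ISG15, was at 7.77 and 6.62 (-1.14 and -1.73). With the local background subtracted, 5 genes were higher and 0 lower, the list median being 0.28. OASL, IFI6, IFIT3, MX1, IFI35, IFI44L and HERC5 were then under 2-fold.

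Without glucose 3 of the 40 genes were at least 2-fold higher, against 4.67% of all genes, and 3 lower, also against 4.67%, 20 had a positive difference, and the median was 0.00. All 11 genes had a lower level in HT29 without glucose than with it, and a smaller difference between the lines. IFI6 was at 9.0 in DLD1 and 10.62 in HT29 with glucose, and at 9.52 and 9.56 without. IFIT3 was at 6.03 and 7.53 with glucose, and its difference without was 0.01. The 11 genes were picked by their difference with glucose, so a smaller difference in the other medium is given only as a value.

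**Figure D3:**
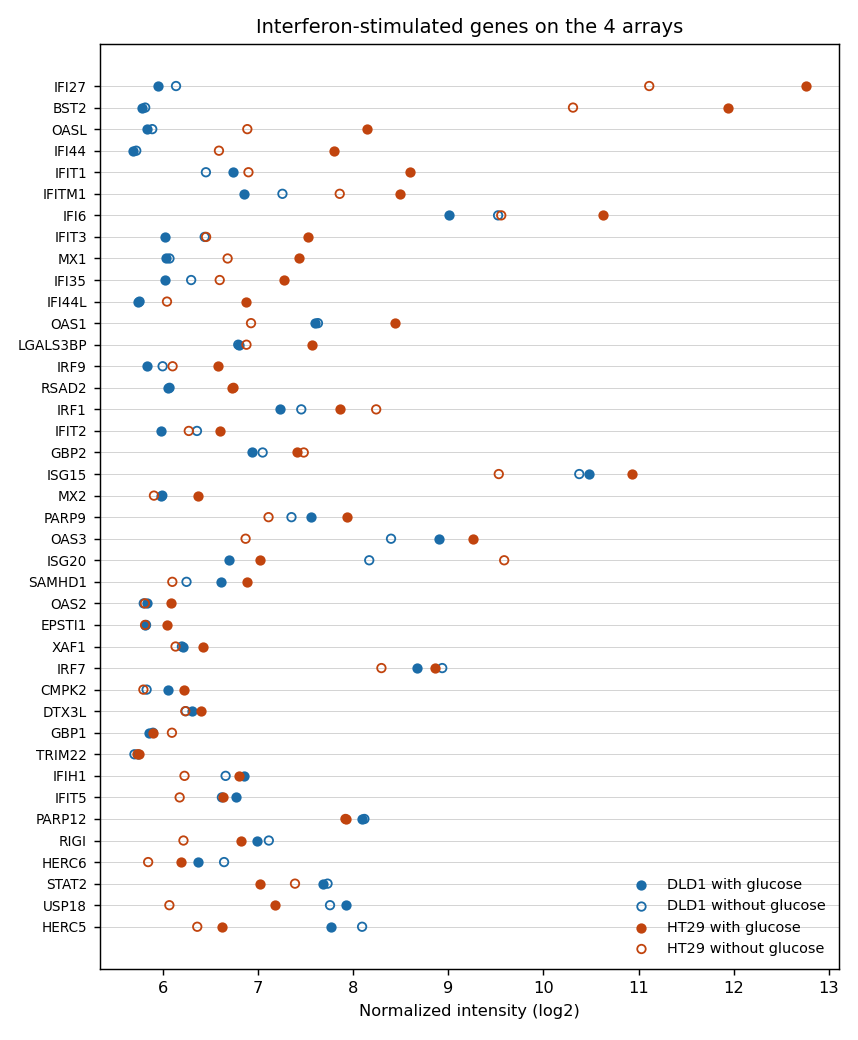
Level of the 40 measured interferon-stimulated genes (log2 normalized intensity, x axis) on all 4 arrays, ordered by HT29 minus DLD1 with glucose. IFI27 and BST2 stand apart on both HT29 arrays, while IFI6 and IFIT3 are apart with glucose and meet without it.

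The promoters of these genes are shown because the interferon-activated factor ISGF3 acts through a known element, the interferon-stimulated response element. Its core was searched as GAAA, any 2 bases and GAAA again on both strands, matches that overlap counted separately, from 250 bases before to 50 after each gene's RefSeq start (GRCh38.p14). It was found in 994 of 27195 promoters and in 384 of the 12958 measured genes with a promoter in the table (2.96%). Of the interferon-stimulated genes, 32 had a promoter in the table and 21 held the motif, 9 of 10 among the genes at least 2-fold higher and 12 of 22 among the others. The promoters of IFI27 (chr14:94110536-94110735, plus strand), BST2 (chr19:17405631-17405830, minus strand), IFIT1 (chr10:89392423-89392622, plus strand), IFI6 (chr1:27672193-27672392, minus strand) and HERC5 (chr4:88456919-88457118, plus strand) are given as the 200 bases before the start, 5′ to 3′ in the direction of the gene. Capitals mark the motif on either strand.
IFI27: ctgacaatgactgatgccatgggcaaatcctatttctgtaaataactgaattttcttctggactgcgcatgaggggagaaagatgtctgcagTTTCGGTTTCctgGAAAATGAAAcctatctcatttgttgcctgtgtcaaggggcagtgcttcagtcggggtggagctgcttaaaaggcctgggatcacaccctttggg
BST2: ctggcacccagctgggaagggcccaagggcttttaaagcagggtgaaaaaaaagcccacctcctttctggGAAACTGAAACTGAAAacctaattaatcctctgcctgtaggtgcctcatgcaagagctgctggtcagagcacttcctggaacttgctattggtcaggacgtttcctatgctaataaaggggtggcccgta
IFIT1: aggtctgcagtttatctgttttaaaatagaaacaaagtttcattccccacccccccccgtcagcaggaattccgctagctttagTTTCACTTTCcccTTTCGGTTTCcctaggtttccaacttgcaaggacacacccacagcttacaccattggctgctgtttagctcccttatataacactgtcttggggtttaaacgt
IFI6: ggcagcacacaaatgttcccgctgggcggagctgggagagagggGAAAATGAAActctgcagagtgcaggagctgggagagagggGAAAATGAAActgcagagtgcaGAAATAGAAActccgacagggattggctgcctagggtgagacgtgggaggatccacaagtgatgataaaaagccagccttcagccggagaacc
HERC5: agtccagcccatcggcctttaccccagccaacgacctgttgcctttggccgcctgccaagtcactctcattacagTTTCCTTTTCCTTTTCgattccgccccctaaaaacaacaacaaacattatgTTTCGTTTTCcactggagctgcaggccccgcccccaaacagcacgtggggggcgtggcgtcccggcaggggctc
IFI27 and BST2, the most distant genes, hold 2 matches each, the pair in BST2 overlapping. HERC5, the single gene at least 2-fold lower, holds 3, of which the first 2 overlap, and IFI6 holds 3 that do not overlap. A match describes the letters only.

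Antigen presentation genes, many of them also induced by interferon, were more often lower than higher in HT29, by small amounts. Of 20 measured MHC class I pathway genes, 14 had a negative difference, against 8046 of 16177 genes, and the median was -0.17. Median scaling moved the median of all genes with a mean level of at least 7 from -0.02 to 0.15, a shift of similar size. The peptide transporter gene TAP1 was at 8.11 in DLD1 and 7.21 in HT29 (-0.90 with glucose, -0.78 without), and the immunoproteasome subunit gene PSMB9 at 7.98 and 7.0 (-0.98 and -0.99). B2M, for the invariant light chain beta-2 microglobulin, was the only one past 2-fold (5.0% of the list, against 5.75% of all genes) and went the other way, at 10.98 and 13.97 (2.98 and 2.21). Of NF-kB targets and chemokines beside CXCL5, IL18, for a cytokine of epithelial cells, was -2.83 and -3.33, and the neutrophil chemokine gene CXCL8 was 2.00 and 2.86. The iron-binding lipocalin gene LCN2 was at 7.38 and 9.48 (2.10 and 2.06). CXCL5 and CXCL8, which act on the same receptor, thus differed in opposite directions.

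S100 proteins are small calcium-binding proteins, many of them secreted or at the membrane. Of 16 measured S100 genes, 5 were higher in HT29 and 1 lower, 37.5% against 5.75% of all genes, with a median of 0.19. The counts without glucose were 5 higher and 3 lower, against 4.67% of all genes in each direction, with a median of 0.03. S100P was at 9.96 in DLD1 and 13.37 in HT29 (3.41 with glucose, 1.48 without), S100A2 at 7.13 and 10.17 (3.04 and 3.29), S100A6 at 13.26 and 15.54 (2.28 and 1.35) and S100A11 at 10.50 and 12.37 (1.87 and 1.55). All 4 were higher on both HT29 arrays than on the DLD1 array of the same medium. S100A14 went the other way, at 11.72 and 9.60 (-2.13 and -3.15). S100A10 and S100A16 were within 0.24 log2 between the lines with glucose.

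Of 55 measured proteases and inhibitors, 14 were higher in HT29 and 4 lower, against 3.08% and 2.67% of all genes. The counts without glucose were 8 higher and 6 lower, against 4.67% of all genes in each direction. Among serine proteases of the kallikrein family, KLK11 was 3.98 higher with glucose and 2.75 without, KLK6 2.24 and 2.28, and KLK10 2.52 and 0.27, while KLK7 was -1.32 and -1.40 and under 2-fold with the local background subtracted. MMP7, for the epithelial matrix protease matrilysin, was at least 9.44-fold higher in HT29 with glucose and 3.90-fold without, being below background in DLD1. SERPINA1, for alpha-1 antitrypsin, was at 6.34 and 9.38 (3.04 and 3.14). The line difference of SERPINA1 was about the same in both media. The elastase inhibitor gene SLPI was at 9.40 and 7.15 (-2.24 and -3.05). CTSL, for the lysosomal protease cathepsin L, was at 9.76 and 7.07 with glucose and 10.06 and 10.13 without, so its difference was -2.69 and 0.06.

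Detoxification genes were divided between the lines by enzyme. Of 58 measured, 9 were higher and 5 lower in HT29, 24.1% against 5.75% of all genes. The counts without glucose were 9 higher and 9 lower, against 4.67% of all genes in each direction. The aldo-keto reductase genes AKR1C3 and AKR1B10 were at 7.91 and 6.0 in DLD1 and 11.90 and 9.77 in HT29, differences of 3.98 and 3.77 with glucose and 3.52 and 3.85 without. Close relatives of AKR1C3 could be read by its probe. The microsomal transferase gene MGST1 was 2.21 and 3.05, whereas its relative MGST3 was -1.67 and -1.84. Beside GSTM3, the lower genes were the epoxygenase gene CYP2J2 (-2.27 and -2.23), the mitochondrial ALDH1B1 (-2.25 and -1.83) and the epoxide hydrolase gene EPHX2 (-1.27 and -1.45, under 2-fold with the local background subtracted). Within the aldehyde dehydrogenases, ALDH1A1 and ALDH1B1 thus differed in opposite directions in both media.

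Tetraspanins organise other proteins in the membrane. Of 29 measured tetraspanin and TM4SF genes, 6 were higher and 3 lower, 31.0% against 5.75% of all genes. The counts without glucose were 4 higher and 5 lower, against 4.67% of all genes in each direction. CD82, a suppressor of cell movement, was at 6.58 in DLD1 and 9.40 in HT29 (2.82 with glucose, 1.68 without), TSPAN3 at 8.42 and 11.06 (2.64 and 2.01), TSPAN5 at 8.47 and 6.11 (-2.36 and -1.55) and CD81, a partner of integrins and immune receptors, at 10.75 and 8.95 (-1.80 and -1.91). These 4 kept their direction in both media. Of 12 measured CEACAM genes, whose sequences are alike enough for 1 probe to read another member, CEACAM1 was 2.36 and 1.45 and CEACAM3 1.87 and 0.94, while CEACAM5, the tumour marker CEA, was at 5.73 and 5.92. Of 39 cadherin and integrin genes 3 were lower, 7.69% against 2.67% of all genes: CDH17, ALCAM (-1.91 and -1.06) and the placental cadherin gene CDH3 (-1.37 and -2.35, or -0.38 with glucose with the local background subtracted). The differentiation keratin gene KRT13 was at 6.0 and 9.37 (3.37 and 1.01).

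Of 34 measured genes of glutamine and linked amino acid metabolism, 3 were lower and 2 higher in HT29, 14.7% against 5.75% of all genes. PHGDH, which starts serine synthesis from a glycolytic intermediate, was at 12.08 in DLD1 and 9.68 in HT29 (-2.40 with glucose, -2.79 without). The glutamine transporter genes SLC38A5 and SLC1A5 were 2.55 and 1.22 higher with glucose and 3.14 and 1.47 without, SLC1A5 being at 0.00 with the local background subtracted. The 3 differences kept their direction without glucose. ME1, for the malic enzyme that makes NADPH, was -1.63 and -0.16, and MDH1, for cytosolic malate dehydrogenase, -1.29 and -1.93. Of 37 glycolysis and glucose uptake genes, 2 were lower and 1 higher, 8.11% against 5.75% of all genes. The glucose transporter gene SLC2A3 was at 7.35 and at the floor in HT29, with 5.73 (-1.61 and -1.77, or -0.64 with glucose with the local background subtracted), and the monocarboxylate transporter gene SLC16A1 was -1.18 and -0.93 (-0.91 with glucose after median scaling). The aldolase C gene ALDOC was at 6.06 and 7.07 (1.01 and 0.70), under 2-fold with the local background subtracted. LDHB and ENO1 were alike, at 13.65 and 14.26 in DLD1 and 13.66 and 14.13 in HT29.

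Sterol and fatty acid synthesis genes had a list median of -0.21 with glucose, or -0.08 after median scaling, and of -0.52 without glucose. Of 34 measured, 3 were lower and 1 higher with glucose, against 2.67% and 3.08% of all genes, and 13 lower and 1 higher without, against 4.67% in each direction. MSMO1 and FDPS, for enzymes on the way to cholesterol, were -1.33 and -1.07 with glucose and -2.72 and -2.03 without, and ME1 was the other lower gene. MSMO1 was -0.71 with the local background subtracted, and FDPS -0.66 after median scaling. SQLE, for squalene epoxidase, was at 10.06 in DLD1 and 11.57 in HT29 with glucose and at 10.36 in both without. NDUFB9, a respiratory complex I subunit gene, was at 11.57 and 13.83 (2.26 and 2.09). With SDHA (1.02 and 0.06) and NDUFS6 (1.05 and 1.13, or 0.48 with the local background subtracted) it made 3 higher genes of 52 of oxidative phosphorylation, 5.77% against 5.75% of all genes in either direction. With the local background subtracted 6 were higher and 5 lower, after median scaling 7 and 0, and without glucose 2 and 6. The metal-binding metallothionein gene MT2A was at 12.80 and 10.88 (-1.92 and -2.47), although -0.58 with the local background subtracted, and its many near copies make its identity uncertain.

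**Figure D4:**
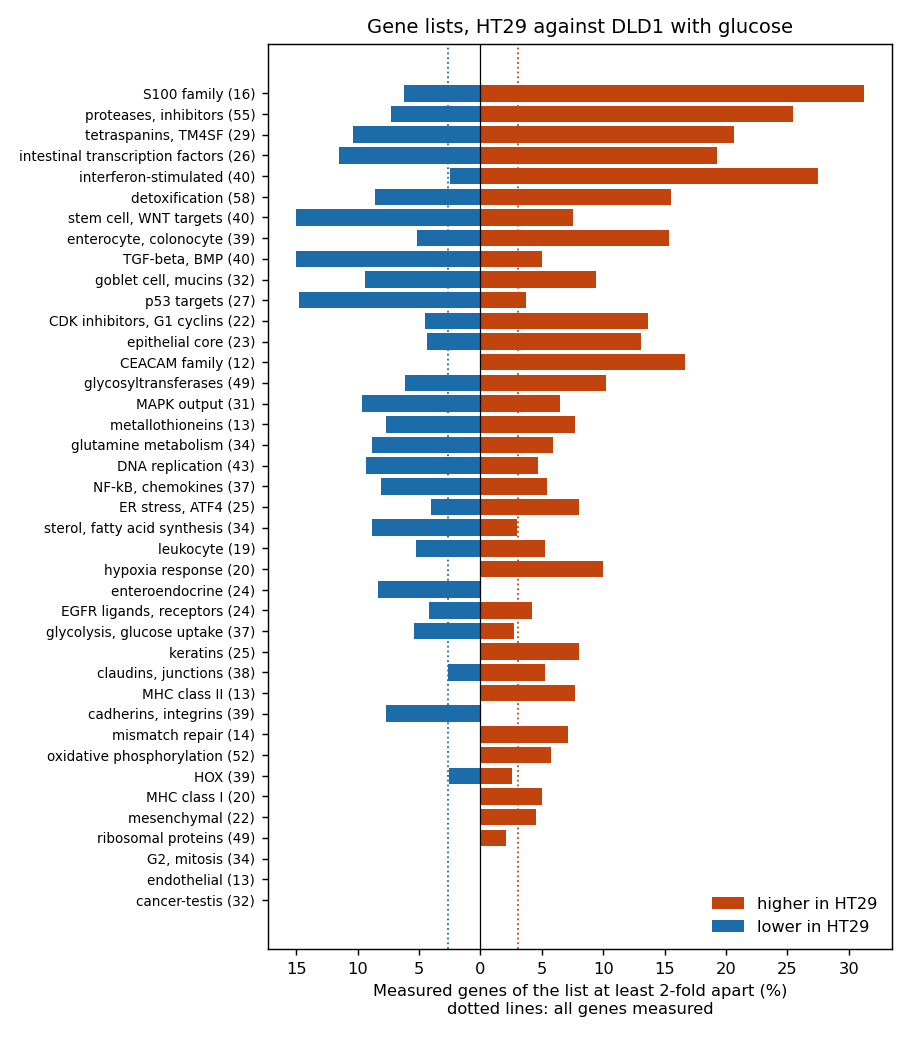
Share of the measured genes of each of 40 lists (number in brackets) that were at least 2-fold higher (right) or lower (left) in HT29 with glucose, in percent, with dotted lines at the shares over all genes, 3.08% and 2.67%. The S100 family and the interferon-stimulated list reach farthest to the right, while the cancer-testis, endothelial, and G2 and mitosis lists hold no gene past 2-fold.

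Some differences past 2-fold with glucose were not kept without it. Of the 930 2-fold genes with glucose, 167 differed by under 0.5 log2 or in the opposite direction without. Of the 167, 108 were higher and 59 lower in HT29 with glucose. They were picked by their difference with glucose on 1 array a line, so a smaller difference without is given only as a value. The 5 highest were KLK10, CLRN3, AQP5, ST3GAL4 and TMEM139. The water channel gene AQP5 was below background in DLD1 and at 7.89 in HT29 with glucose, and 0.45 apart without. CLRN3 was at least 5.39-fold higher with glucose and 0.44 apart without, and TMEM139 was 1.99 and -0.48. The 5 lowest were CTSL, the peptidase gene BLMH (-2.45 and -0.36, or -0.77 with the local background subtracted), the autophagy gene GABARAPL1 (-2.25 and -0.45), AGR2 and GADD45B. For CTSL, AGR2 and GABARAPL1 the DLD1 arrays were closer to each other than the HT29 arrays, with GABARAPL1 at 6.62 in HT29 with glucose and 9.81 without.

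Differences were also unevenly spread along the chromosomes. They are given for 6017 genes with a mean level of at least 7 that were above background in both lines and had a RefSeq place, with a median of -0.02 and 48.55% positive. Chromosome 13 had a median of 0.44, with 94 of 121 genes higher in HT29, chromosome 20 of 0.38 (124 of 178) and chromosome 15 of 0.32 (140 of 184). Chromosome 14 had a median of -0.40, with 35 of 197 genes higher in HT29, chromosome 21 of -0.39 (14 of 68) and chromosome 18 of -0.32 (28 of 90). The first 3 chromosomes and the last 3 therefore lay on opposite sides of the median. Without glucose the 6 medians were 0.36, 0.37, 0.19, -0.46, -0.49 and -0.19 in that order. Median scaling moved the median of all these genes to 0.15. After it the medians of chromosomes 13 and 14 were 0.64 and -0.26.

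In blocks of about 50 neighbouring genes, 121 in all, the block medians with and without glucose had r = 0.900, a description over blocks that share arrays. The highest blocks with glucose were PPP5C to KLK10 on chromosome 19 (0.64), TBC1D31 to C8orf33 on chromosome 8 (0.62), COQ8B to IGFL2 on chromosome 19 (0.61) and TUBA3C to RB1 on chromosome 13 (0.60). Without glucose these 4 were at 0.64, 0.44, 0.44 and 0.61. The lowest were RPRD1A to ADNP2 on chromosome 18 (-0.59 with glucose, -0.27 without), CCNB1IP1 to PRORP on chromosome 14 (-0.46 and -0.43) and FBXO11 to DUSP11 on chromosome 2 (-0.45 and -0.54). Single chromosomes held blocks of both signs, chromosome 19 among them with 0.64 and -0.40. DNA copy number was not measured on these arrays, and its part in these values was not tested.

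**Figure D5:**
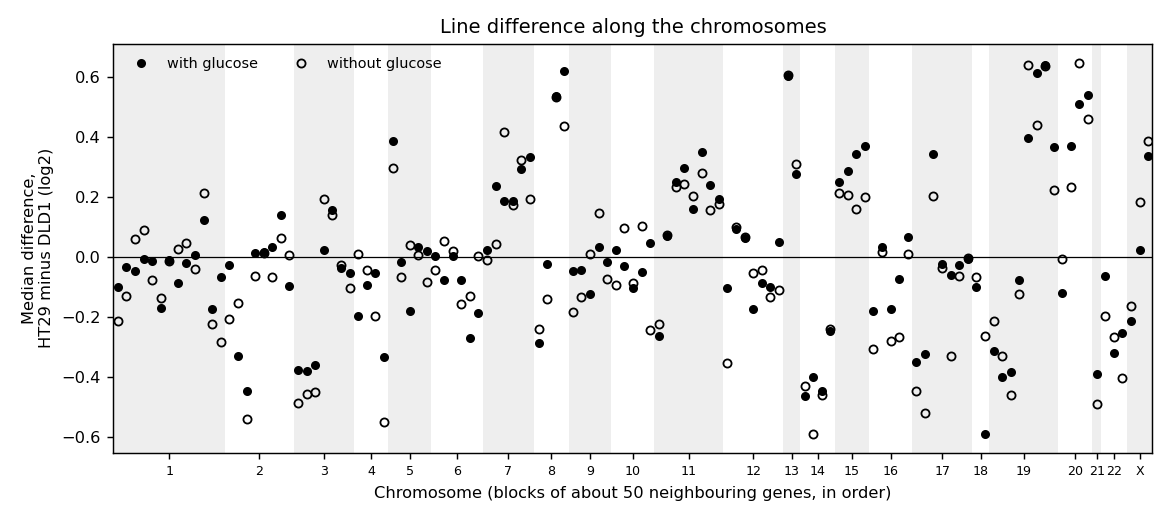
Median difference HT29 minus DLD1 (log2, y axis) in 121 blocks of about 50 neighbouring genes in chromosome order, with glucose (filled) and without (open), for genes with a mean level of at least 7. Blocks of chromosomes 13, 15 and 20 lie mostly above 0 and those of chromosomes 14, 21 and 22 below, with both media close together.

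Promoters were also compared by composition. By a CpG ratio of at least 0.6 and at least 50% G and C over the same window, 8678 of 12958 measured genes had a CpG-rich promoter (66.97%). Of the genes at least 4-fold higher in HT29, 41 of the 88 with a promoter in the table did so (46.59%), and of those at least 4-fold lower 38 of 60 (63.33%). Methylation was not measured, and no test was made of this difference.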

How the data were processed

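Per the file headers, the authors' scanner files give for each spot its median intensity and that of its surroundings, before any background subtraction. The image software is not stated there. The deposited series table lists intensity on a linear scale and followed the scanner values in a straight line (median 25 on each array), so its scale and direction are known. Spot medians were corrected with normexp (offset 50) and quantile normalized over 4 arrays with limma 3.58.1 in R 4.3.3. Surrounding intensity was kept for an alternative, since it tracked the spots themselves (correlation of the logs 0.904 to 0.966). Each array had 27456 spots, 2680 of them blank, and 24460 probes. The median probe intensity was 54.8 in DLD1 and 57.9 in HT29 with glucose, against blank medians of 34.4 and 35.6. The number of arrays limits the precision.

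A probe was above background where it passed the 95th percentile of the blanks, as 85.5% did in DLD1 and 87.0% in HT29 with glucose. Of the probes, 20236 had 1 symbol, 0 had several and 4224 were unnamed. Symbols came from the platform annotation, 2851 of them updated through RefSeq synonyms. Probes of Y-linked genes and XIST (38) and 1 probe with a spot flag were left out. Probes of a gene that passed background on at least 1 of the 2 arrays with glucose were averaged. For 1733 genes with 2 probes above background on both of these arrays, the differences of the 2 probes had r = 0.771. Of 57 genes past 2-fold by both probes, 0 disagreed in direction. A fold with 1 line below background is a lower limit, taken from the dimmest probe that passed background there.

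Samples were grouped by title. Genes were counted at 2-fold with no test, and limma with Benjamini-Hochberg adjustment tested the line over both media. Its p-values measure the spread of the line difference between the 2 media. That spread holds any difference between the lines in their response to glucose, and technical spread as well. The genes named were the 15 highest and 15 lowest, up to 5 members of each of 40 lists by size of difference and 2 alike members, all measured members of 7 of the lists, and the 5 highest and 5 lowest that did not persist without glucose. Other list members, such as IFI6, HERC5, BMP4 or KLK6, were named after their values were seen. The members and lists were chosen with earlier results of these data known. The media pair the arrays by design, since each medium holds both lines. The alternatives were another offset, local background, median scaling, cyclic loess, quantile normalization over 2 arrays, the deposited values, other filters and probe rules, the medium, the block and leaving out each array. The procedure was tested on simulated data. Chromosomes and promoters came from RefSeq tables of GRCh38.p14. Figures were drawn with matplotlib 3.10.9.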

Additional observations from a re-analysis of the deposited data

Results flagged for a closer look

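EGR1, an immediate early gene of growth signalling, stood out because the line difference had opposite directions in the 2 media: -1.03 with glucose and 1.80 without. Its level with glucose was 7.74 in DLD1 and 6.71 in HT29, and without glucose 7.34 and 9.14. GADD45B, a stress-inducible gene, did likewise, with -2.06 with glucose and 1.26 without, from levels of 8.42 and 6.36 with glucose and 8.75 and 10.01 without. CLIC3 was 1.14 and -1.77, GEM -1.52 and 2.16, and NUCB2 -1.74 and 1.15. These are all 5 genes at least 2-fold apart in opposite directions, and were named after their values were seen. In each pair of media there is 1 array per line, so the difference between media was not tested.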

How the results depend on the processing

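Of 156 genes named in the text that were at least 2-fold apart, all but OLR1 and EGR1 kept their direction under every alternative with glucose, and these 2 were 0.34 and 0.11 with the local background subtracted. That setting left 108 past 2-fold, median scaling 151, cyclic loess and quantile normalization over 2 arrays 154 each, the deposited values 153, and the offset of 16, the absence of a filter and the brightest probe 156. Asking for both lines above background left 147 to compare, all past 2-fold. The deposited values made 83 of them over 1.5 times as large. The 498 higher and 432 lower genes became 804 and 778 with the offset of 16, 2025 and 1470 on the deposited values, whose median over all genes was 0.12, and 755 and 755 without glucose. Median scaling gave 747 and 367. Without glucose 105 of the 156 were past 2-fold and 11 had the opposite sign or none: AGR2 0.51, CLIC3 -1.77, CTSL 0.061, EGR1 1.80, GADD45B 1.26, GEM 2.16, KLF4 0.52, NUCB2 1.15, SFN 0.65, SQLE 0.00 and TMEM139 -0.48. The hypoxia response list went from a median of -0.11 to 0.15 without glucose, and chromosome 3 from -0.14 to 0.019 after median scaling and 0.006 on the deposited values. The 7 list medians of at least 0.1 in size kept their sign under all alternatives with glucose. For limma, dropping the replicate block for the medium gave 23 higher and 23 lower genes, the deposited values 400 and 408, and leaving out each array, with no block, 0 to 0. Causes were not tested. The signal over background limits genes near the floor in 1 line, whose differences are too small.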
